A study of Mus musculus with 6 samples.

Results

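The transcripts examined here encode the enzymes of haem synthesis and the carrier that brings iron to the last of them, measured in mouse bone marrow by sequencing of polyadenylated RNA. The members are Alas1, Alas2, Alad, Uros, Urod, Cpox, Ppox, Fech and Slc25a37, listed by name for their role, and all 9 were found by symbol among the 49315 gene rows of the count table. All 9 passed the filter on low counts, out of 16956 genes tested. The marrow came from 3 KO samples (replicates 2, 3 and 4), labelled miR-181a2b2-/-, and 3 WT samples (replicates 1, 3 and 4), labelled miR-181a2b2flox/flox and thus carrying the floxed locus undeleted. Animals of both groups had been fed the HFSC diet and had undergone hindlimb ischemia, in which the leg's blood supply is interrupted by surgery. Age, sex and any Cre driver are not given in the labels used here, nor whether replicates are different animals, so the spread behind each p-value is that of these samples and may be technical.

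Haem is built in a relay between mitochondria and cytosol. In the mitochondrion, a 5-aminolevulinate synthase (ALAS) joins glycine and succinyl-CoA in the rate-limiting step. Cytosolic enzymes assemble the ring, and the last enzymes act back in the mitochondrion, where ferrochelatase inserts iron. Alas1 serves nearly all cells and is held back by haem itself, whereas Alas2 is made in red cell precursors, where most haem of the body is made for haemoglobin. Bone marrow is the site of adult red cell formation, so a marrow sample holds both kinds of haem synthesis.

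Total counts lay between 33861440 and 40359093 per library, and the members together took between 0.253% and 0.458% of them. The lowest count of any member in any library was 2365, for which counting error alone is 2.06%, so counting limits these values little. Of the 22 erythroid marker genes listed, 21 were measured and 0 of these averaged under 1 CPM (counts scaled by library total and a trimmed-mean factor, TMM). All 6 hepatocyte markers lay under 1 CPM, as did 3 of 6 adipocyte markers, Plin1, Cidec and Lep. The adipocyte list was checked because white adipose tissue appears in the extraction label, and its summed level ran from 55.2 to 77.5 CPM in KO libraries and from 43.4 to 66.1 CPM in WT libraries. The deleted microRNAs could not be checked, since Mir181a-2 and Mir181b-2 had 0 counts in all 6 libraries, and poly(A) selection captures such short precursors poorly.

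The sequences at the start of these genes are shown for 2 motifs of erythroid regulation. RefSeq promoter windows (GRCm38.p6, 250 bases before to 50 after a start site) were examined for 7 of the 9 members, all but Fech and Slc25a37, with 10 windows in all. They were searched on both strands for GATAA, the core of sites bound by the erythroid regulator GATA1. It was present in 3 of the 10 windows, 1 each for Alas2, Cpox and the downstream start of Uros, and in neither Alas1 window. Among 14750 windows of tested genes 17.5% hold it, and 25.4% of all 32851 windows. The windows with a match and the downstream Alas1 window are printed 5′ to 3′ on the gene's strand, with GATAA or its complement TTATC in capitals.
Alas2, chrX:150547167-150547466, plus strand: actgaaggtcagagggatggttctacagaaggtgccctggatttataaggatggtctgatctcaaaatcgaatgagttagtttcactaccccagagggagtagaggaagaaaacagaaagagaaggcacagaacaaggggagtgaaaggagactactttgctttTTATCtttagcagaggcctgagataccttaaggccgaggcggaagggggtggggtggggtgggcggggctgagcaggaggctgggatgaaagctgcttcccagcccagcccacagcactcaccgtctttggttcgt
Cpox, chr16:58669958-58670257, plus strand: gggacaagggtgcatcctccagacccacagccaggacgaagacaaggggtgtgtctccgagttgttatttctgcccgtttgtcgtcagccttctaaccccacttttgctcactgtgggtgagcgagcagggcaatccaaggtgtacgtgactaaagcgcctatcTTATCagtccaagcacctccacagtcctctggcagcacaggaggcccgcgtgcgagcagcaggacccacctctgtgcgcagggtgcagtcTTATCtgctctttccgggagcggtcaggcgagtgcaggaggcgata
Uros downstream start, chr7:133702451-133702750, minus strand: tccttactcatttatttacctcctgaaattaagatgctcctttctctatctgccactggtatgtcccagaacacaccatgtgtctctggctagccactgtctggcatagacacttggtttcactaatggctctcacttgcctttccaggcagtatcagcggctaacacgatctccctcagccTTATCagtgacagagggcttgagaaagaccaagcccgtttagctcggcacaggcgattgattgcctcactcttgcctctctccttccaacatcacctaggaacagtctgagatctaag
Alas1 downstream start, chr9:106247681-106247980, minus strand: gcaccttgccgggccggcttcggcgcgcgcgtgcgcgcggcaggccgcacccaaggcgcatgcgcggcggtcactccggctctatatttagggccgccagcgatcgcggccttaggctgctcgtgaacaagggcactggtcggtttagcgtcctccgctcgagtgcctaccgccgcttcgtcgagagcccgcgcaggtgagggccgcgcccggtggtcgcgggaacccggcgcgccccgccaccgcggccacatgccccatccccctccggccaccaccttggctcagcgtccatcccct

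Counting the base before the start as -1, the match lay at -86 in Alas2, at -86 and 5 in Cpox and at -68 in the Uros window. CACCC, the core of the box bound by KLF-family factors, was searched in the same way on both strands and does not overlap GATAA. It occurred 3 times in the Alas2 window, as GGGTG at -40, -35 and -30, and 4 times in the Cpox window. Matches also lay in the Urod window, the downstream Alad window and both Alas1 windows. The upstream Alad window, the Ppox window and the Uros windows had none. The Alas1 windows overlap, and the match at 22 of the upstream window is the same site as that at -203 of the downstream window. Of the windows of tested genes 63.2% hold it. Mouse Uros is known to have a housekeeping and an erythroid promoter, but counts per gene do not separate transcripts by their start.

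Messenger RNA level is not the only layer at which ALAS2 is set. Its 5′ untranslated region carries an iron-responsive element (IRE), a hairpin to which iron regulatory proteins bind to block translation when iron is scarce. A search for an unpaired C followed by 5 bases, the loop CAGTG with any base but G, and 5 bases able to pair with the first 5 found it in 1 of the 9 members, Alas2, and in 14 of 13776 tested genes (0.102%). It is shown with the loop in capitals. The stretch crosses a splice junction, so its ends lie at 150547459 and 150552149 on chromosome X (GRCm38, GENCODE M21).
Alas2 IRE: tggttcgtcctCAGTGCagggcaacagg

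The mature microRNAs of the deleted locus are shown next with their seed (bases 2 to 8) in capitals, because a transcript that carries the matching site could be a direct target. Entries on chromosome 2 alone were taken, so any other genomic copies of these microRNAs were not examined.
mmu-miR-181a-5p, chr2:38852741-38852763, plus strand: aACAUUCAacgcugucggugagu
mmu-miR-181b-5p, chr2:38853845-38853868, plus strand: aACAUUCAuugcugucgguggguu

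Both share the seed, whose match in messenger RNA is TGAATGT. It was found in the 3′ untranslated region of 1 of the 9 members, Slc25a37, against 17.8% of 13665 tested genes (longest coding transcript of each gene). The Slc25a37 site begins at base 631 of the 3′ untranslated region, is followed by an A (an 8mer site) and spans chr14:69244197-69244203 on the minus strand (GRCm38). It is shown with the match in capitals.
Slc25a37 site: gtttaactTGAATGTaaaataat
The shorter 6mer match GAATGT occurred in 3 members, Cpox, Fech and Slc25a37, against 35.4% of tested genes. A letter match is a description of the sequence and no evidence of binding.

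Levels were compared between genes per kilobase of merged exons (CPM per kb, mean over 6 libraries). Alas2 was the most abundant at 332 CPM per kb, followed by the mitochondrial iron carrier Slc25a37 at 157. Both stood above the next gene in all 6 libraries with no overlap of ranges. Urod (66.4), Alad (60.3) and Cpox (59.0 CPM per kb) formed a middle group whose ranges overlapped. Urod exceeded Alad in all 6 libraries, but Alad exceeded Cpox in only 4 of 6. The lowest were Ppox (36.8), Alas1 (34.8), Fech (30.8) and Uros (21.3 CPM per kb). Ppox was above Alas1, and Alas1 above Fech, in 4 of 6 libraries each, so these neighbours do not differ beyond their spread, whereas Fech was above Uros in 6 of 6. With the longest coding transcript as length, the order below Slc25a37 was Cpox (127), Urod (116), Ppox (91.1), Alad (90.4), Fech (64.8), Alas1 (63.1) and Uros (43.2 CPM per kb). The order of the middle and lower genes thus depends on the length used.

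In KO against WT, 8 of the 9 transcripts averaged lower and 1, Alas1, averaged higher, but none passed the test over all genes. edgeR's quasi-likelihood test with Benjamini-Hochberg adjustment called 0 of 9 members at an adjusted p under 0.05, where it called 2.46% of the 16956 genes tested (417, with 159 higher and 258 lower in KO). With library totals alone as scaling that split was 87 higher and 403 lower, and 169 and 169 after removal of trends on exon length and GC content. At an unadjusted p under 0.05, 5 members were lower, against 12.2% of all genes, and 1 was higher, against 11.7%. DESeq2 called 3 members, where 12.6% of genes were called, limma 1, where 6.23% were, and edgeR without a filter on low counts 2, where 4.91% were. The median log2 fold change (KO minus WT) over the members was -0.32, beside -0.01 over all genes tested, of which 51.1% were negative. In marrow RNA, fewer red cell precursors and less of a transcript in each of them cannot be told apart.

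**Figure D1:**
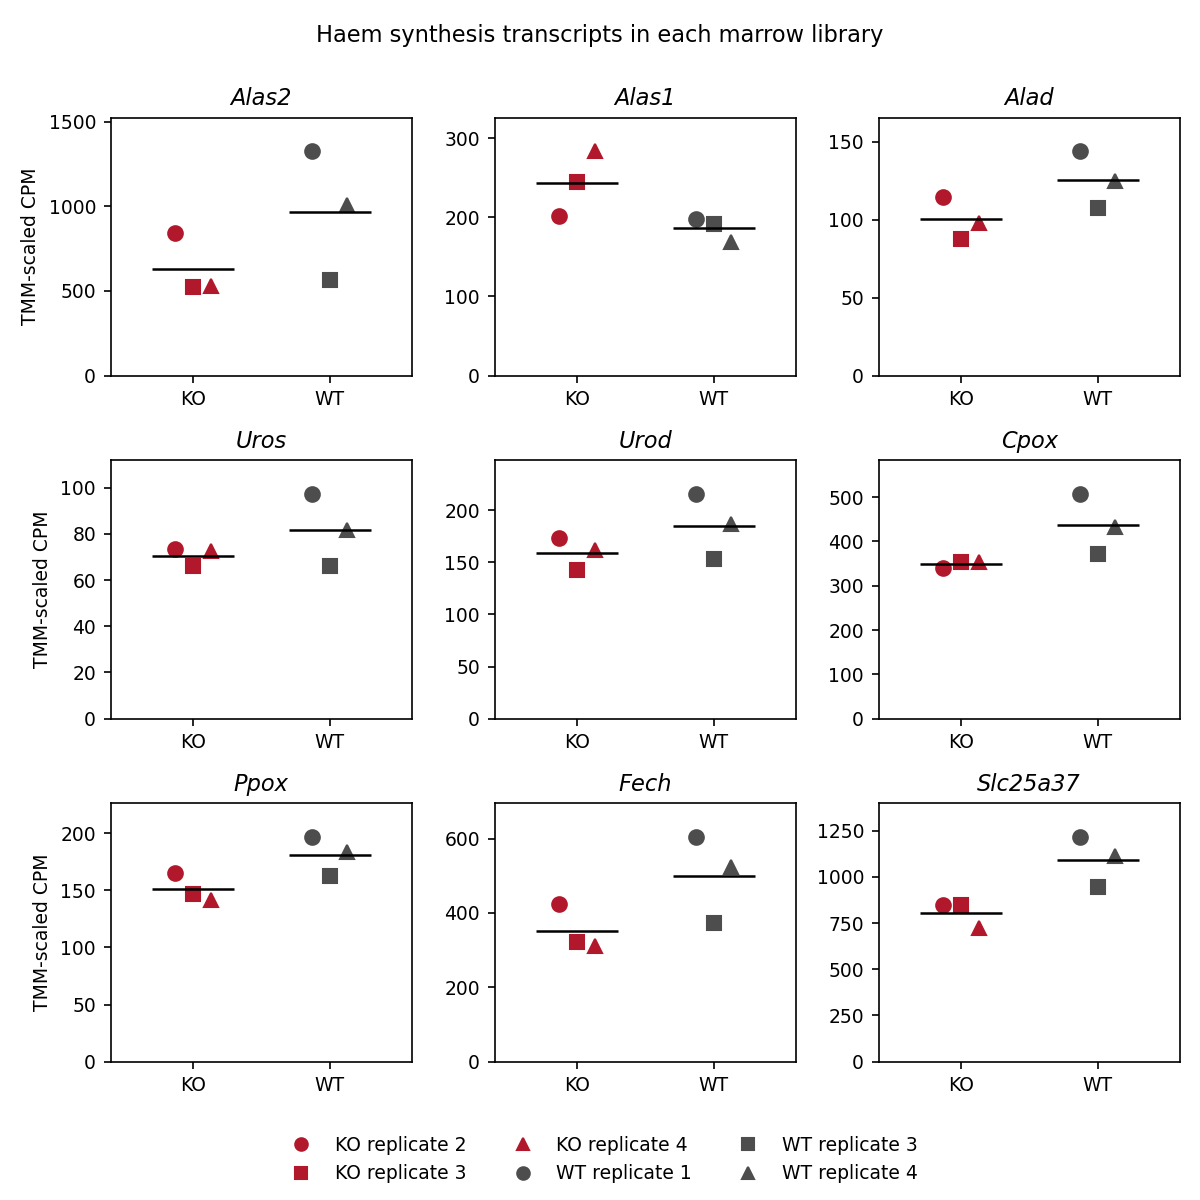
Level of each transcript in each library (vertical axis, TMM-scaled CPM from 0), KO on the left and WT on the right, 3 libraries each, with a horizontal bar at the mean. Only Alas1, Cpox and Slc25a37 have no overlap between groups, and Alas1 is the gene whose KO libraries lie above.

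The first enzyme exists in an erythroid form, Alas2 (ENSMUSG00000025270, chrX:150547375-150570638, plus strand, GRCm38), and a housekeeping form, Alas1 (ENSMUSG00000032786, chr9:106233455-106248654, minus strand). Alas2 lay at 842, 524 and 527 CPM in KO replicates 2, 3 and 4, against 1325, 565 and 1006 CPM in WT replicates 1, 3 and 4. The groups overlapped, since WT replicate 3 was nearly as low as the KO minimum and KO replicate 2 exceeded it. The means were 631 ± 183 CPM in KO and 965 ± 382 CPM in WT (SD, n = 3 each). This gave a log2 fold change of -0.61 ± 0.34 (SE, edgeR adjusted p = 0.327), with a 95% interval of -1.44 to 0.21, so levels of 0.369 to 1.16 times WT lay within it. Alas2 had the widest spread of the members, 2.53-fold between the highest and lowest library, and its difference was -0.31 without WT replicate 1 and -0.88 without WT replicate 3. The 4 adult globin genes summed to 20960, 10520 and 13680 CPM in KO and to 27340, 10390 and 19370 CPM in WT, in the same order of replicates. Their sum, like Alas2, was highest in WT replicate 1 and overlapped between groups.

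Alas1, the housekeeping form, went the other way. Its level was 202, 245 and 284 CPM in KO replicates 2, 3 and 4, against 198, 191 and 169 CPM in WT replicates 1, 3 and 4. All KO libraries were above all WT libraries, though KO replicate 2 only narrowly. Of all genes tested 14.4% were likewise higher in KO with no overlap between groups. The log2 fold change was 0.39 ± 0.13 (SE, 95% interval 0.10 to 0.68, edgeR adjusted p = 0.12). DESeq2 called Alas1 higher (adjusted p = 0.0446), as did edgeR without a filter on low counts (adjusted p = 0.0332), and limma did not (adjusted p = 0.0642). Neutrophil markers moved with the same groups, and 4 of 14 rose in edgeR, where 159 of 16956 genes did. Their summed levels ran from 70920 to 86150 CPM in KO libraries and from 47790 to 60410 CPM in WT libraries. The count of 4 became 0 when KO replicate 4, WT replicate 1 or WT replicate 4 was left out, 2 without WT replicate 3, 1 with an Xist covariate, 10 without a filter on low counts, 13 in DESeq2 and 10 in limma. Among other lists, 6 of 6 megakaryocyte markers were positive and 10 of 10 B lineage markers negative (median log2 fold change 0.47 and -0.71), with 0 called. Monocyte and macrophage markers were positive in 7 of 11, with 1 called higher. The part of any of these cell types in the Alas1 difference was not tested. Xist was above 1 CPM in 1 of 3 KO and 2 of 3 WT libraries, so sex may be mixed within groups and unequal between them.

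**Figure D2:**
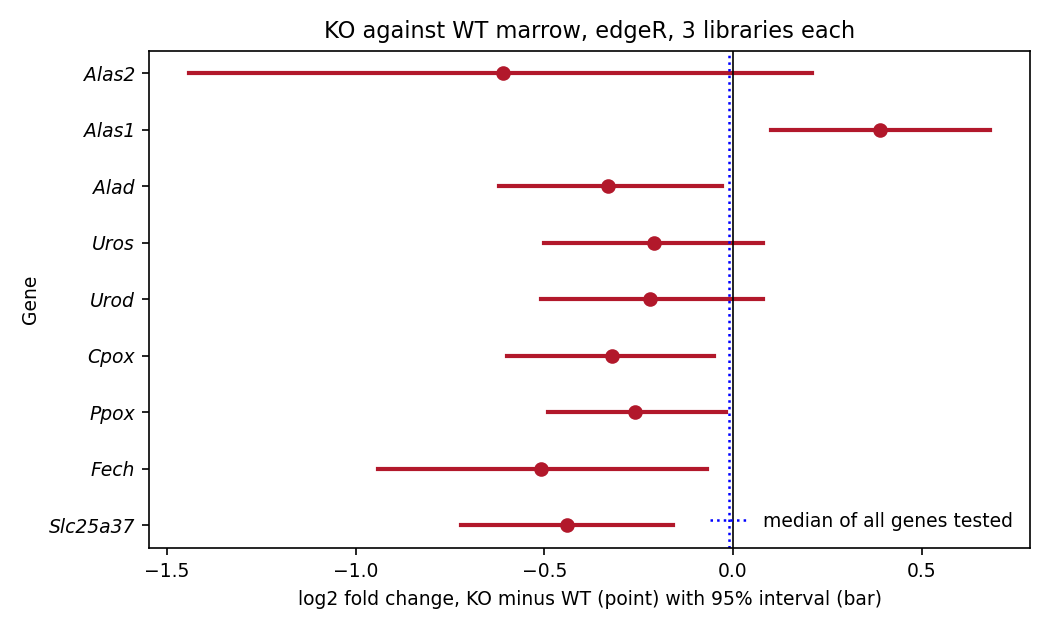
Log2 fold change of each gene, KO minus WT, with its 95% interval from the edgeR fit over all genes (3 libraries each). Alas1 is the gene with a positive value (0.39), and the intervals of Alas2, Uros and Urod include 0.

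The ratio of the erythroid to the housekeeping form was then taken within each library, where scaling cancels. Per kilobase, Alas2 exceeded Alas1 10.7-fold, 5.50-fold and 4.78-fold in KO replicates 2, 3 and 4, against 17.2-fold, 7.59-fold and 15.3-fold in WT replicates 1, 3 and 4. With the longest coding transcript as length these ratios were 6.97, 3.57 and 3.10 in KO and 11.2, 4.93 and 9.91 in WT. The mean log2 ratio was 2.71 ± 0.62 in KO and 3.65 ± 0.64 in WT (SD, n = 3 each). The difference of -0.94 did not separate the groups (exact permutation test, two-sided, p = 0.2), and KO replicate 2 lay above WT replicate 3. With 3 libraries against 3 the smallest p this test can give is 0.1. The same ratio to Alas1 was lower in KO with no overlap for Cpox (difference -0.69), Ppox (-0.63) and Slc25a37 (-0.81). Each was at that smallest p = 0.1 in the exact permutation test, and at 0.2 after adjustment over the 8 ratios, which all share Alas1. Alas1 itself was higher in KO, so a transcript with no change would also come out lower on this ratio. In CPM, Cpox and Slc25a37 had no overlap either, whereas Ppox overlapped. The share of all genes that separate on the ratio to Alas1 was not computed.

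The cytosolic enzymes showed small differences. Alad, 5-aminolevulinate dehydratase, makes porphobilinogen and lay at 115, 87.8 and 98.1 CPM in KO replicates 2, 3 and 4, against 144, 108 and 125 CPM in WT replicates 1, 3 and 4. Its groups overlapped in KO replicate 2 and WT replicate 3 (log2 fold change -0.33 ± 0.13, SE, edgeR adjusted p = 0.169). Uros, uroporphyrinogen III synthase, closes the ring in the form that leads to haem and had the lowest level per length of the members. It was at 73.4, 66.1 and 72.5 CPM in KO and at 97.2, 66.1 and 81.6 CPM in WT, with WT replicate 3 at the KO minimum. Urod, uroporphyrinogen decarboxylase, lay at 173, 142 and 162 CPM in KO and at 215, 153 and 187 CPM in WT, and its groups overlapped in the same way. The 95% intervals ran from -0.50 to 0.08 for Uros and from -0.51 to 0.08 for Urod (log2, KO minus WT), so a fall to 0.707 or 0.700 times the WT level lay within them. Without WT replicate 1 the log2 fold change of Uros was -0.06 and that of Urod -0.09.

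The mitochondrial oxidases followed. Cpox (chr16:58670292-58717636, plus strand), coproporphyrinogen oxidase, lay at 339, 354 and 354 CPM in KO replicates 2, 3 and 4, against 507, 371 and 433 CPM in WT replicates 1, 3 and 4. The groups did not overlap, as was the case in the lower direction for 14.7% of all genes tested. The KO libraries were close together, with a coefficient of variation of 2.49% in KO and 15.5% in WT. The log2 fold change was -0.32 ± 0.12 (SE, edgeR adjusted p = 0.147). Ppox, protoporphyrinogen oxidase, had 166, 146 and 142 CPM in KO and 197, 162 and 183 CPM in WT, with KO replicate 2 just above WT replicate 3 (log2 fold change -0.26, edgeR adjusted p = 0.174). Exons of B4galt3 on the opposite strand cover 17.5% of the Ppox exon bases, at a B4galt3 level of 61.6 CPM, and those of Apex2 (15.7 CPM) cover 12.9% of Alas2. How the counting treated strand is unknown here, and reads in those stretches may belong to either gene.

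Iron delivery and its insertion came last. Fech (chr18:64452914-64490251, minus strand), ferrochelatase, places iron in protoporphyrin and lay at 425, 321 and 310 CPM in KO replicates 2, 3 and 4, against 604, 372 and 524 CPM in WT replicates 1, 3 and 4. KO replicate 2 was above WT replicate 3, and the other KO libraries were below all WT libraries. The log2 fold change was -0.51 ± 0.19 (SE, edgeR adjusted p = 0.154), DESeq2 called it lower (adjusted p = 0.0456), limma did not (adjusted p = 0.104), and it was -0.28 after removal of trends on exon length and GC content. Slc25a37 (chr14:69241848-69285112, minus strand), mitoferrin-1, carries iron across the inner mitochondrial membrane of red cell precursors. It had 846, 846 and 722 CPM in KO replicates 2, 3 and 4, against 1215, 945 and 1111 CPM in WT replicates 1, 3 and 4. All KO libraries were below all WT libraries, as for 14.7% of all genes tested. The unadjusted p of Slc25a37 in edgeR, 0.00594, was the smallest among the members. The log2 fold change of -0.44 ± 0.12 (SE, edgeR adjusted p = 0.0857) put KO at 0.738 times the WT level (95% interval 0.608 to 0.896). DESeq2 (adjusted p = 0.00925), limma (0.0481) and edgeR without a filter on low counts (adjusted p = 0.0281) called it lower. Its difference ran from -0.53 to -0.35 over the 6 fits that left out 1 library, with no call in any of them. Slc25a37 is also the member with the miR-181 site shown above, but whether that site bears on its level was not tested.

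**Figure D3:**
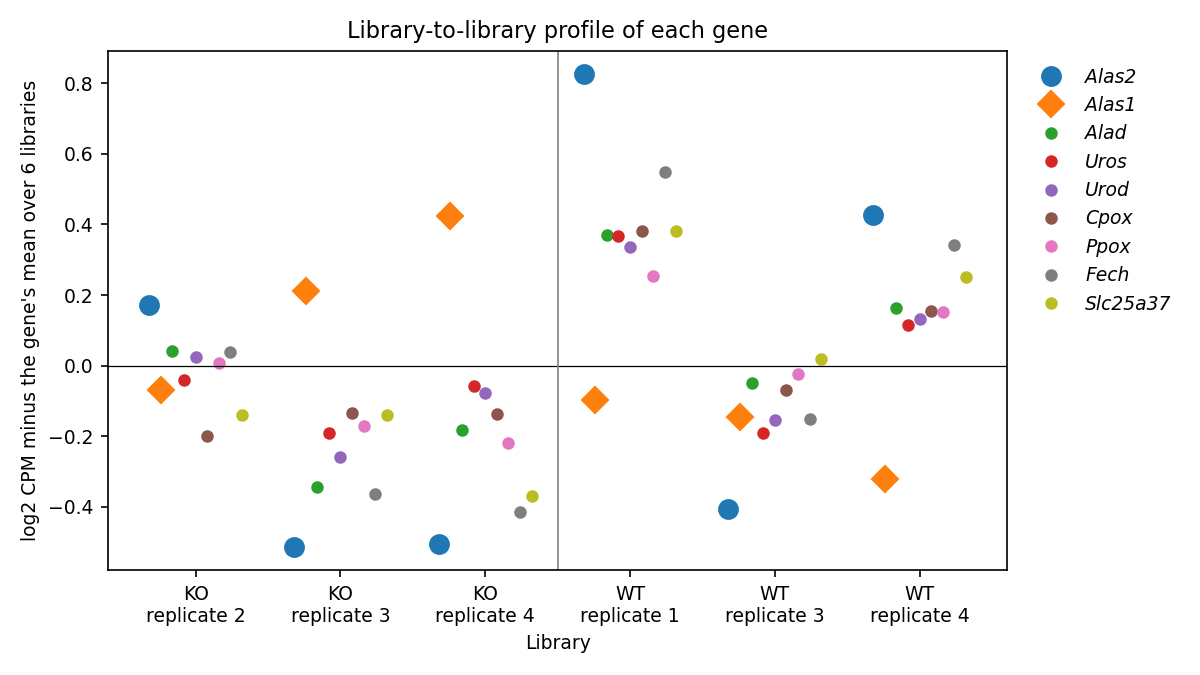
Mean-centred log2 CPM of each gene (vertical axis) in each of the 6 libraries, KO left of the grey line and WT right of it. Alas2 (large circles) covers the widest range, every gene but Alas1 lies above 0 with it in WT replicate 1 and WT replicate 4, and Alas1 (diamonds) lies opposite to it in 5 of the 6 libraries.

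The members were compared by how their levels varied between libraries. Fech came closest to Alas2, with a root mean square difference of mean-centred log2 CPM over the 6 libraries of 0.180, rank 18 of 11108 genes compared, and a median of 0.539 over those genes. The other members apart from Alas1 lay between 0.304 (Alad) and 0.365 (Cpox) from Alas2, and Alas1 at 0.698, rank 10253. Those other members lay between 0.365 (Uros) and 0.473 (Slc25a37) from Alas1, where the median over genes was 0.272. By distance, Uros, Urod, Cpox and Ppox were thus only a little nearer to Alas2 than to Alas1. Their ranks lay between 351 (Urod) and 571 (Cpox) from Alas2, and between 8324 (Uros) and 8891 (Ppox) from Alas1. The 4 genes most like Alas2 by this measure were Tent5c (0.097), Fam220a (0.108), Ube2o (0.124) and Hba-a1 (0.132), which encodes alpha globin. None of these 4 passed the test between KO and WT (edgeR adjusted p from 0.151 to 0.582). The 5 most like Alas1 were Rpn1 (0.022), which encodes a subunit of the oligosaccharyltransferase, Myd88 (0.028), an adaptor of Toll-like receptors, Nipsnap3b (0.040), Ldha (0.040), which encodes lactate dehydrogenase A, and BE692007 (0.043).

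Transcripts of erythroid markers were set beside the members. All 21 measured erythroid markers had a negative log2 fold change, with a median of -0.35. Of these, 5 fell in KO in edgeR, where 258 of 16956 genes did, 0 rose and 16 did not pass. Among them were Sptb and Ank1, which encode a spectrin and an ankyrin of the red cell skeleton, and Ermap and Kel, which encode membrane proteins (log2 fold changes -0.85 for Sptb, -0.80 for Ank1, -0.69 for Ermap and -0.62 for Kel). The count was 0 when KO replicate 4, WT replicate 1 or WT replicate 4 was left out, 8 in DESeq2 and 6 in limma. The 17 markers other than globins summed to 6229, 5852 and 5530 CPM in KO replicates 2, 3 and 4, against 9619, 7039 and 8479 CPM in WT replicates 1, 3 and 4.

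Relative to that sum, Alas2, Fech and Slc25a37 differed little between the groups, and Alas1 had the largest difference. The sum itself was lower in KO, so a transcript with no change would also come out higher on this ratio. Abundant markers weigh most in the sum. Slc4a1 was the largest part, with means of 1590 CPM in KO and 2490 CPM in WT (log2 fold change -0.64). Car2 came next at 1110 and 1340 CPM (-0.27), beside a median of -0.35 over the 21 measured markers. Ratios to single markers were not computed. The log2 ratio of Alas2 to the 17 markers was -3.25 ± 0.32 in KO and -3.19 ± 0.40 in WT (SD, n = 3 each), a difference of -0.06 (exact permutation test, two-sided, p = 0.9). Fech differed by 0.01 (exact permutation p = 1.0) and Slc25a37 by 0.07 (exact permutation p = 0.3). Uros, Urod, Cpox and Ppox were higher in KO relative to this sum, by 0.31, 0.29, 0.19 and 0.25, with no overlap between groups. In CPM all of them averaged lower in KO (log2 fold changes -0.21, -0.22, -0.32 and -0.26). How many of all genes separate on this ratio was not computed. Alas1 was higher by 0.88, also with no overlap. Alad differed by 0.18 with overlapping groups (exact permutation p = 0.2). For the 5 without overlap the exact permutation test gave its smallest value, p = 0.1, and an adjusted value of 0.18 over the 9 ratios, so none passed a threshold of 0.05. Relative to the summed globins, Alas2 differed by -0.28 (exact permutation p = 0.2). These ratios were chosen after the levels were seen.

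**Figure D4:**
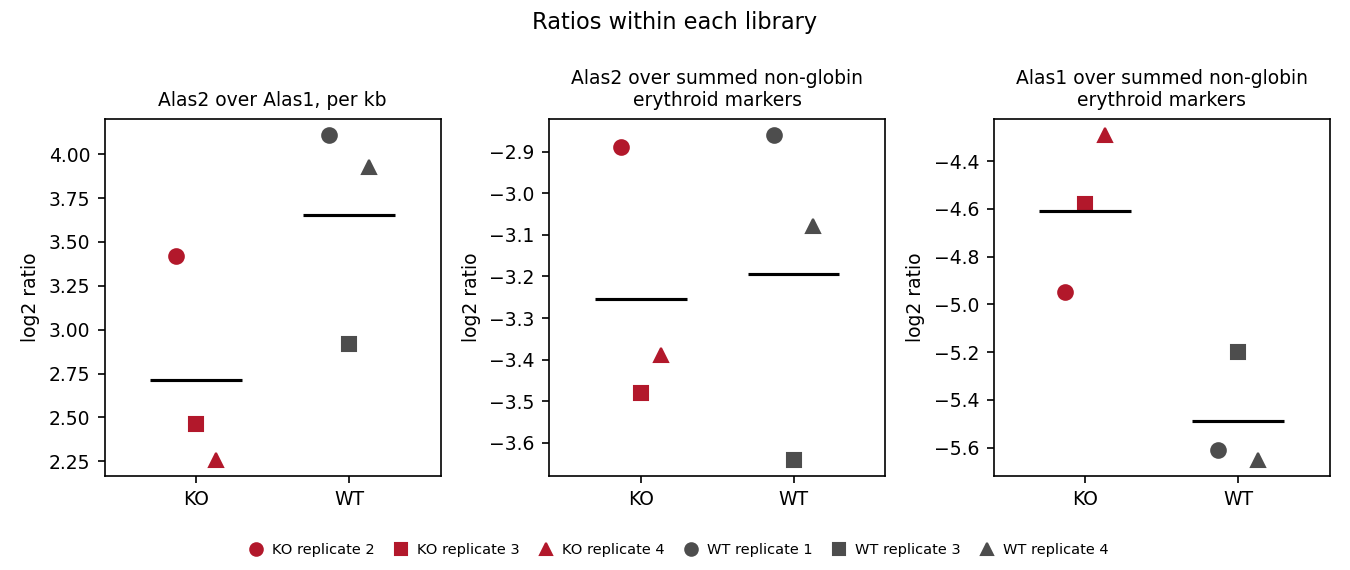
Log2 ratios within each library, KO left of WT, with a bar at the mean: Alas2 over Alas1 per kilobase, and Alas2 and Alas1 over the summed level of 17 non-globin erythroid markers. The vertical axes differ and do not start at 0. Alas1 over the markers is the ratio without overlap between the groups.

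The remaining genes around the pathway were read from 4 lists. Of 14 genes for mitochondrial transport and cofactors, 0 were called by edgeR (median log2 fold change -0.20). Its unadjusted p was under 0.05 for 3, all lower in KO, against 12.2% of all genes tested. A single gene was called lower both by DESeq2, which called 12.6% of all genes in either direction, and by limma, which called 6.23%. It was Abcb10, a mitochondrial transporter that stabilises mitoferrin-1 in mouse cells, at 225, 207 and 197 CPM in KO replicates 2, 3 and 4, against 309, 242 and 293 CPM in WT replicates 1, 3 and 4. Its groups did not overlap, as in the lower direction for 14.7% of all genes tested (log2 fold change -0.43 ± 0.11, SE, edgeR adjusted p = 0.0757). Fam210b, another mitochondrial protein needed for iron import, had -0.38 (edgeR adjusted p = 0.155).

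Of 14 iron-sulphur cluster assembly genes, 0 were called by edgeR, DESeq2 or limma. At an unadjusted p under 0.05, 1 was higher, against 11.7% of all genes tested. The 2 with the smallest p were Nfu1, a cluster carrier (log2 fold change 0.28, edgeR adjusted p = 0.129), and Fdxr, ferredoxin reductase (0.21, adjusted p = 0.264). Their median was -0.11. Of 12 genes of haem export, binding and breakdown 10 were tested and 0 were called by edgeR, DESeq2 or limma, with a median of -0.01. At an unadjusted p under 0.05, 1 was higher and 1 lower, against 11.7% and 12.2% of all genes. Hmox2, the constitutive haem oxygenase, had 0.28 (edgeR adjusted p = 0.118) and Abcg2, a porphyrin exporter, -0.24 (adjusted p = 0.19). The inducible oxygenase Hmox1 was at 81.4 ± 5.69 CPM in KO and 82.2 ± 18.7 CPM in WT (SD, n = 3 each).

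Of 12 regulators, 0 were called by edgeR or limma, and DESeq2 called 1 lower, where it called 12.6% of all genes in either direction. At an unadjusted p under 0.05 edgeR gave 2 lower and 1 higher, against 12.2% and 11.7% of all genes, and the median was -0.11. The gene called by DESeq2 was Eif2ak1, the haem-regulated kinase that slows globin translation when haem is short, at 188, 184 and 178 CPM in KO replicates 2, 3 and 4, against 253, 213 and 224 CPM in WT replicates 1, 3 and 4 (log2 fold change -0.33 ± 0.09, SE, edgeR adjusted p = 0.0903, DESeq2 adjusted p = 0.0231). All its KO libraries were below all WT libraries, as for 14.7% of all genes tested. Aco1, which encodes the iron regulatory protein IRP1, had -0.24 (edgeR adjusted p = 0.152), and Ireb2, which encodes IRP2, had -0.06. Gata1 and Klf1, erythroid transcription factors that are also among the erythroid markers, had -0.26 and -0.16 (edgeR adjusted p = 0.267 and 0.514).

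**Figure D5:**
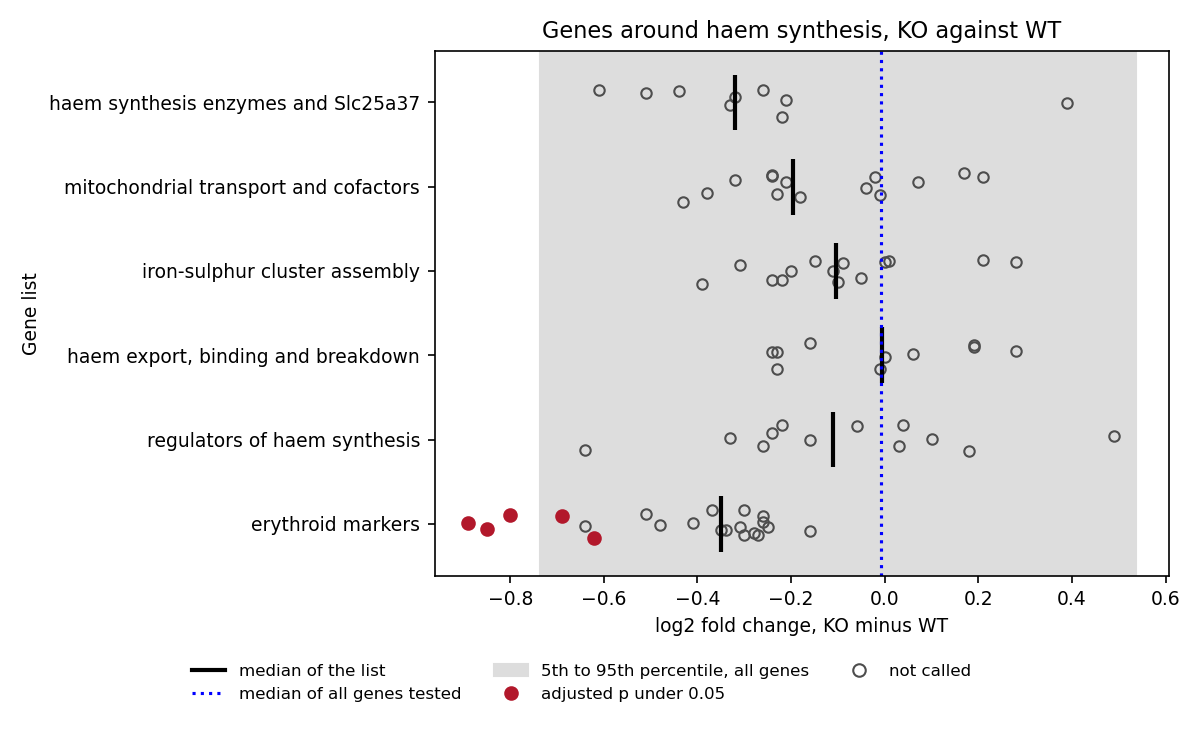
Log2 fold changes, KO minus WT, of the genes in 6 lists (points, filled where edgeR's adjusted p is under 0.05) with the list median (black line) and the median of all genes tested (dotted line). The grey band holds the 5th to 95th percentile of all genes tested, from -0.74 to 0.54, and every member of the haem synthesis list lies inside it.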

How the data were processed

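Raw counts per gene were deposited by the authors for 6 libraries. The submitters' processing notes list STAR 2.5.2b, Trimmomatic 0.36, Subread 1.5.2 with its featureCounts, and genome build GRCm38. Annotation release, strand setting and treatment of multi-mapping reads: not given in the sources used here. Symbols, exon lengths and untranslated regions came from GENCODE M21 (GRCm38), and 49056 of 49315 identifiers had a symbol. The deposited counts went unaltered into edgeR 4.0.16 under R 4.3.3, with TMM scaling, filterByExpr, the robust quasi-likelihood test (two-sided) and Benjamini-Hochberg adjustment over all genes tested. Ratios within libraries were tested by exact permutation. The procedure was tested on simulated data. Alternatives used DESeq2 1.42.0, limma 3.58.1, other scalings and filters, a replicate block, an Xist covariate, removal of length and GC trends, and each library left out.

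The members, gene lists and tests were chosen with earlier results of these data known. The text names all members, the 2 genes with the smallest p and any called gene of each pathway list, and the 5 genes closest to Alas2 and to Alas1 whose log2 CPM averages 1 or more. That comparison omitted predicted genes, antigen receptor segments and pseudogenes. Hmox1, Ireb2, Gata1, Klf1, Slc4a1, Car2 and called erythroid markers are named in addition, chosen after their values were seen. Values of some genes within these rules are not reported here. Intervals of 95% come from the edgeR fit.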

Additional observations from a re-analysis of the deposited data

How the results depend on the processing

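All 9 members kept the sign of their difference in all 16 alternative fits. Members were called higher in 1 case without a filter on low counts (Alas1) and 1 with DESeq2 (Alas1), and lower in 1 without that filter (Slc25a37), 2 with DESeq2 (Fech and Slc25a37) and 1 with limma (Slc25a37). The count was 0 in each of the other fits, including the 6 that left out 1 library. Of the pathway lists, 2 genes were called lower without that filter, 2 with DESeq2 and 1 with limma, and 0 in either direction in the 6 fits without 1 library. The KO minus WT difference of the log2 ratio of Alas2 to Alas1 ran from -1.31 without WT replicate 3 to -0.71 without KO replicate 4 or WT replicate 1, and it was -0.88 with the Xist covariate. Libraries with Xist above 1 CPM were 1 of 3 in KO and 2 of 3 in WT, and Alas2, which is X-linked, had -0.62 with that covariate.

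Over all genes, 87 higher and 403 lower were called with library totals alone, 653 and 839 without a filter, 76 and 133 with the Xist covariate, 169 lower after removal of length and GC trends, 857 and 784 with DESeq2, and 495 and 562 with limma. Leaving out 1 library gave from 6 to 316 higher and from 23 to 604 lower. It gave 9 and 23 without KO replicate 4, 6 and 27 without WT replicate 1, 13 and 24 without WT replicate 4, 56 and 143 without WT replicate 3, and 316 and 604 without KO replicate 3. The causes were not tested.

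Groups share only the replicate numbers 3 and 4. Deviations of same-numbered libraries from their group means correlated at 0.21 and -0.139 across genes. These values come from 3 libraries per group and cannot decide whether same-numbered libraries are paired. With the number as a block, 212 genes were higher and 359 lower, 0 members were called, 3 erythroid markers fell and the log2 ratio of Alas2 to Alas1 differed by -1.07 (mean of the shared numbers, no test). The counts of erythroid and neutrophil markers under the alternatives were added after seeing the data. With at least 2365 counts per member and library, precision for the members is limited by the 3 libraries per group and not by depth.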
